A study of Oryza sativa with 12 samples.

Results

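Drought raised 374 loci at least 4 times in wild type rice leaves, and 105 of them (28.1%) reached a lower level in every drought-stressed idr1-1 leaf library than in any drought-stressed wild type library. These 105 loci are described here. They were chosen from 55986 entries by measured values. CPM is the count of a locus per 1000000 counts of its library. A member had more than 0.5 CPM in at least 1 control library and a wild type drought mean of at least 5 CPM that was at least 4 times the wild type control mean. Its highest idr1-1 drought library also lay below its lowest wild type drought library. LOC_Os11g26760, which met these conditions, and LOC_Os02g44870, which did not, were left out beforehand. The wild type rise and the lower level in idr1-1 drought leaves are therefore what chose the members and are given as descriptions, with no test.

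RNA was sequenced from leaves of upland rice cultivar IAPAR9 (wild type) and of the mutant idr1-1 in the same cultivar, taken from tank-grown plants that were 5 weeks old and had 5 leaves. Each genotype was kept either unstressed (control) or without water until soil moisture fell to 10% (drought), with 3 biological replicates for each of the 4 groups. The mutated gene is known to be RGA1, which encodes the G protein alpha subunit, and the labels do not say how many independent lines were used. RGA1 (LOC_Os05g26890) lay at 10.9 to 12.7 CPM in the 6 idr1-1 libraries and at 24.1 to 34.0 CPM in the 6 wild type libraries, without overlap.

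In drying leaves the hormone abscisic acid accumulates. Its receptors then hold back clade A protein phosphatases 2C, kinases become active and bZIP transcription factors switch on target genes, among them the phosphatases themselves, which limit the response. G proteins are membrane switches that relay hormone and stress signals, and in plants they are known to modulate abscisic acid responses. Some sugar transporters of the SWEET family carry sucrose out of cells and are known to respond to water deficit.

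Library totals were 19100444 to 25109848 counts. Across genes, log2 CPM of replicates had a Pearson r of 0.983 to 0.988 in 3 groups, and in idr1-1 drought r was 0.979, 0.966 and 0.951 and replicate 3 stood apart from replicates 1 and 2. Of the leaf markers, CAB1R (a light-harvesting protein) and RCA (Rubisco activase) together held 12455 to 23610 CPM. Shoot apex markers OSH1 and OSH15 together had at most 0.044 CPM in any library, and the root marker LSI2 was at 0 in all 12. The root marker LSI1 was at 4.38 to 20 CPM. Leaf samples are mixtures, so fewer cells of a type and less RNA per cell cannot be told apart.

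The members covered a wide range of levels. Their mean in wild type control leaves ran from 0.278 to 868 CPM with a median of 2.78, and in wild type drought leaves from 5.12 to 3557 CPM with a median of 33.8. The corresponding medians in idr1-1 were 2.41 CPM in control and 18.3 CPM in drought. The wild type drought mean was between 4.03 and 405 times the control mean (median 9.65), and the idr1-1 drought mean between 1.53 and 260 times its control mean (median 6.65). In idr1-1 the drought level was 22.7% to 81.9% of the wild type drought level, with a median of 61.7%. The 25 that stayed below 50% had a median wild type drought level of 24.4 CPM, against 39.7 CPM for the other 80.

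**Figure D1:**
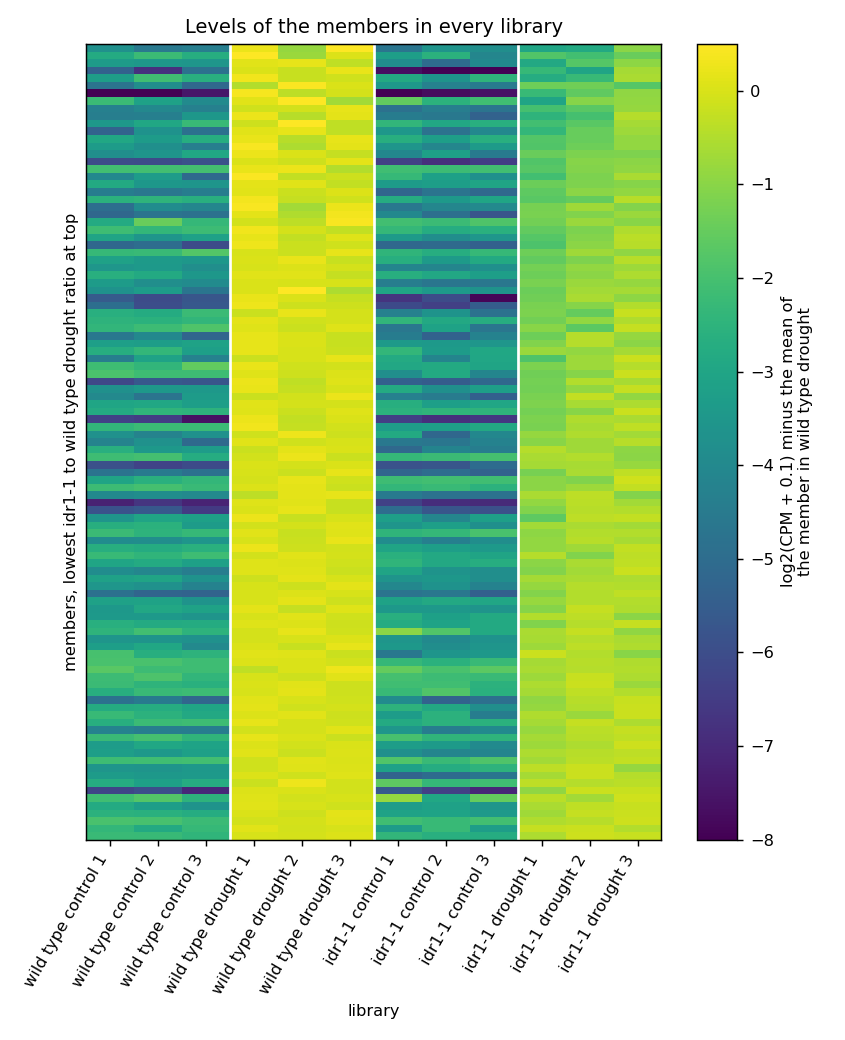
Heat map of the 105 members (rows, lowest ratio of idr1-1 to wild type drought at the top) in the 12 libraries (columns). Colour gives log2(CPM + 0.1) minus the member's mean in wild type drought; idr1-1 drought libraries mostly lie above both control groups and stay below wild type drought, with replicate 1 the lowest for 83 of 105 members.

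Of the members, 5 carry a name assigned to their locus in published work that the reference gene table also places on the same chromosome. HOX22 (LOC_Os04g45810), a homeodomain-leucine zipper transcription factor induced by abscisic acid and drought, was at 187, 196 and 182 CPM in wild type drought replicates 1, 2 and 3 and at 77.4, 102 and 112 CPM in idr1-1 drought. In control leaves it was at 16.2, 17.3 and 13.5 CPM in wild type and at 10.4, 10.7 and 13.8 CPM in idr1-1, where the ranges overlap. The rule keeps the drought groups of every member apart, and here the lowest wild type library was 1.63 times the highest idr1-1 library. Its rise in idr1-1 was 3.09 on the log2 scale (SE 0.16, edgeR adjusted p = 2.4e-07), against a wild type rise of 3.64 (SE 0.16).

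PP2C68 (LOC_Os09g15670), a clade A protein phosphatase 2C, reached 163, 136 and 147 CPM in wild type drought and 72.9, 89.4 and 112 CPM in idr1-1 drought. In control it was at 7.91, 11.4 and 4.22 CPM in wild type and at 5.96, 5.71 and 7.74 CPM in idr1-1, again overlapping. It rose by 3.84 (log2, SE 0.29, edgeR adjusted p = 3.1e-06) in idr1-1 and by 4.28 (SE 0.30) in wild type. BZIP23 (LOC_Os02g52780), a bZIP factor that acts on abscisic acid target genes, had the smallest loss of all 105 members. It was at 147, 142 and 154 CPM in wild type drought and at 102, 133 and 128 CPM in idr1-1 drought, or 81.9% of wild type. On the TMM scale described below these drought groups overlap, and BZIP23 no longer meets the rule. Its rises were of nearly the same size, 2.34 (log2, SE 0.13, edgeR adjusted p = 3.5e-07) in idr1-1 and 2.37 (SE 0.13) in wild type, and its control level in idr1-1 was lower by a log2 fold change of -0.19 (SE 0.13, edgeR adjusted p = 0.34).

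Both named sugar transporters had a different pattern, a lower mean control level in idr1-1 (past the test for SWEET13 only) and a fold change under drought that was not smaller. SWEET13 (LOC_Os12g29220) was at 7.54, 6.89 and 10.1 CPM in wild type control and at 2.36, 3.66 and 1.59 CPM in idr1-1 control. Under drought it reached 41.4, 55.2 and 45.7 CPM in wild type and 20.6, 16.5 and 40.2 CPM in idr1-1, where replicate 3 came close to the lowest wild type library. The control groups do not overlap, and the difference passed the test (log2 fold change -1.60, SE 0.31, edgeR adjusted p = 0.015), a call held in 14 of 18 alternative settings (adjusted p up to 0.069). The rise was 3.34 (log2, SE 0.31, edgeR adjusted p = 1.1e-05) in idr1-1 and 2.60 (SE 0.27) in wild type.

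SWEET15 (LOC_Os02g30910) was at 0.890, 0.260 and 1.30 CPM in wild type control and had 2, 1 and 0 counts in the 3 idr1-1 control libraries. Under drought it rose to 40.1, 34.3 and 46.7 CPM in wild type and to 7.96, 4.79 and 25.5 CPM in idr1-1, or 31.6% of wild type. From 3 counts in control to 804 in drought, the ratio in idr1-1 was 249 (95% counting interval 84.8 to 1210, exact Clopper-Pearson, counting error only). The idr1-1 control level was 0.0625 times that of wild type by counts (3 against 50, interval 0.0125 to 0.194), and this did not pass the replicate test (edgeR adjusted p = 0.093). Replicate 3 of idr1-1 drought was the highest of its group for both transporters, and without it the log2 rise in idr1-1 went from 7.81 to 7.0 for SWEET15 and from 3.34 to 3.02 for SWEET13.

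ADF3 (LOC_Os03g60580), an actin depolymerizing factor that severs actin filaments, was given its name by the same check after its values were seen. It stood at 270, 188 and 226 CPM in wild type drought and at 100, 160 and 150 CPM in idr1-1 drought, from 2.67, 2.43 and 1.04 CPM and 2.55, 1.83 and 2.21 CPM in the control groups. The control groups overlap, and the drought groups do not, as the rule requires. The rise was 5.99 (log2, SE 0.31, edgeR adjusted p = 2.4e-07) in idr1-1 and 6.83 (SE 0.32) in wild type. Its neighbour among the members, LOC_Os03g60560, rose by 1.90 (log2, SE 0.47, edgeR adjusted p = 0.0087) in idr1-1 and by 4.34 (SE 0.52) in wild type, from 23 and 50 counts summed over the wild type and idr1-1 control groups.

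**Figure D2:**
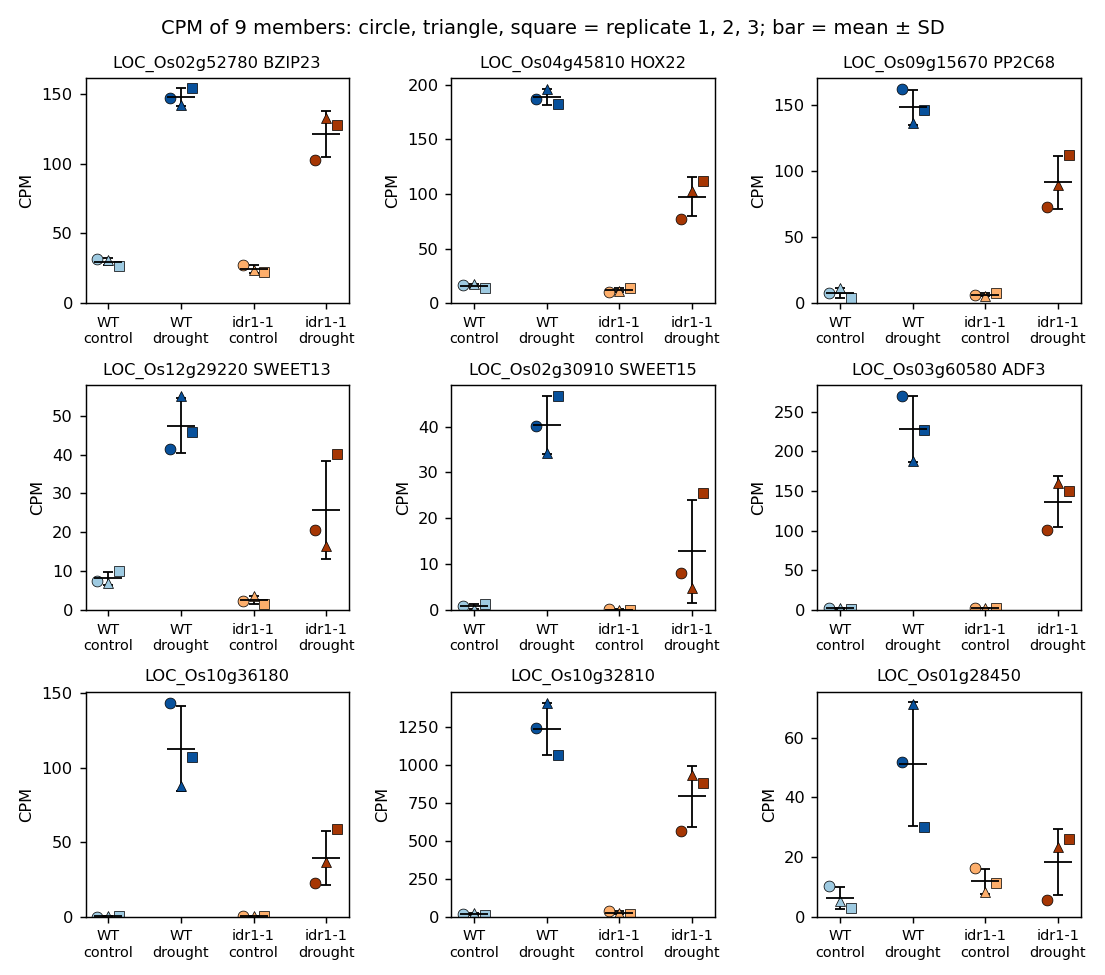
CPM of 9 members in every library by group; circles, triangles and squares are replicates 1, 2 and 3, and bars give mean ± SD (n = 3). In every panel the 3 idr1-1 drought libraries lie below the 3 wild type drought libraries, as the choice of members requires, and for LOC_Os01g28450 they overlap with idr1-1 control.

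Among the lists of named drought genes, 13 of 82 loci met the wild type conditions and 5 of these were members. Of all raised loci, 28.1% were members. The conditions ask for 1 control library over 0.5 CPM, so a gene silent in control cannot count as raised. None of the 6 late embryogenesis abundant and dehydrin genes met them. These 6 do not include the 2 loci left out beforehand, which both met the wild type conditions (376 raised loci with them, 374 without). By identifier, the left-out LOC_Os11g26760 lies between the listed RAB16D (LOC_Os11g26750) and RAB16B (LOC_Os11g26780). Of 9 clade A phosphatases, 4 were raised and 1 was a member. Of 16 stress transcription factors, 2 were raised and both were members, and of 6 sugar transport and sucrose genes 2 were raised and both were members. The 16 leave out factors whose names the gene table did not hold, among them the members LOC_Os01g64730 and LOC_Os03g60560. The same check left out LOC_Os07g05940 from the abscisic acid list and LOC_Os07g48830 from the compatible solute list, both raised and neither a member. None of the 2 raised genes for compatible solutes, the 1 raised heat shock gene, the 1 raised gene of abscisic acid synthesis or the 1 raised aquaporin was a member (0 of 5). Of these, HSP101 (LOC_Os05g44340, a disaggregase) and P5CS1 (LOC_Os05g38150, a proline synthesis enzyme) missed the separation narrowly, with the lowest wild type drought library at 21.77 and 177 CPM and the highest idr1-1 drought library at 21.78 and 178 CPM. The aquaporin PIP2-6 (LOC_Os04g16450), counted in the aquaporin list and singled out after its values were seen, was 1 of 3 raised loci that went the other way, with every idr1-1 drought library (95.04, 101 and 108 CPM) above every wild type one (86.0, 67.3 and 84.4 CPM).

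The most abundant members are loci without a name in the sources used here. LOC_Os12g02320 was at 3377, 3456 and 3837 CPM in wild type drought and at 2467, 2650 and 3216 CPM in idr1-1 drought, from 932, 896 and 778 CPM and 825, 727 and 835 CPM in control. Its counts were not whole in 58.3% of libraries, as fractional counting of shared reads gives, and its level is uncertain. LOC_Os04g34610 went from 187, 193 and 134 CPM to 1628, 1837 and 1497 CPM in wild type and from 192, 224 and 210 CPM to 939, 1184 and 1193 CPM in idr1-1. Its control groups overlap, and its drought groups do not, as the rule requires. Its counts were not whole in 41.7% of libraries.

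LOC_Os10g32810, whose counts were whole throughout, had a similar profile with a larger fold. It was at 1247, 1407 and 1066 CPM in wild type drought and at 564, 933 and 881 CPM in idr1-1 drought, from 21.2, 24.5 and 12.96 CPM and 39.5, 23.1 and 20.1 CPM in control, where the groups overlap. Its rise was 4.88 (log2, SE 0.33, edgeR adjusted p = 1.4e-06) in idr1-1 and 6.03 (SE 0.35) in wild type. The other 7 of the 10 most abundant members had wild type drought means between 238 and 443 CPM, and idr1-1 reached 42.3% (LOC_Os03g19290) to 75.7% (LOC_Os03g51920) of them. Within these, LOC_Os02g01590 had nearly equal rises in both genotypes (5.87, SE 0.39, edgeR adjusted p = 1e-06 in idr1-1 and 5.86, SE 0.38, in wild type). Its drought level in idr1-1 was 52.4% of wild type. Its control mean was 4.13 CPM in idr1-1 and 7.97 CPM in wild type, a difference that did not pass the test (log2 fold change -0.87, SE 0.35, edgeR adjusted p = 0.13).

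The 10 members with the lowest ratio reached 22.7% to 37.4% of the wild type drought level. LOC_Os01g54030 was the lowest, at 8.79, 4.06 and 11.2 CPM in wild type drought and 0.836, 0.958 and 3.68 CPM in idr1-1 drought. Its rise in idr1-1 was 2.20 (log2, SE 0.64, edgeR adjusted p = 0.019) and 1.37 (adjusted p = 0.09) without drought replicate 3, its highest. Of these 10, 3 were at under 10 CPM in wild type drought, the others being LOC_Os01g19770 (25.8% of wild type) and LOC_Os04g32320 (34.0%). LOC_Os07g35940, whose counts were not whole in 33.3% of libraries and whose level is therefore uncertain, was at 49.1, 49.4 and 59.9 CPM in wild type drought and 12.97, 16.2 and 29.3 CPM in idr1-1 drought (36.9%). It rose by 3.26 (log2, SE 0.24, edgeR adjusted p = 2.4e-06) in idr1-1. LOC_Os02g43820 and LOC_Os03g06360 reached 31.1% and 37.4%. The strongest wild type rise of any member belonged to LOC_Os10g36180, which went from 0.141, 0.173 and 0.521 CPM to 144, 87.6 and 107 CPM. Its control levels rest on 17 counts in wild type and 25 in idr1-1, so the size of its rises is uncertain. In idr1-1 it went from 0.331, 0.419 and 0.481 CPM to 22.7, 36.6 and 59.0 CPM, a rise of 6.57 (log2, SE 0.40, edgeR adjusted p = 5.8e-07) against 8.74 (SE 0.42) in wild type. LOC_Os01g68650 was steadier among replicates, going from 0.609, 0.910 and 0.625 CPM to 110.4, 113 and 89.3 CPM in wild type and from 1.18, 0.785 and 0.721 CPM to 55.8, 79.5 and 64.8 CPM in idr1-1. Its control groups overlap, and its drought groups do not, as the rule requires. It rose by 6.25 (log2, SE 0.23, edgeR adjusted p = 4.5e-08) in idr1-1 and by 7.22 (SE 0.24) in wild type.

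The question the mutant raises for these loci is whether they still responded to drought, and nearly all did. Between drought and control in idr1-1, 103 of 105 members (98.1%) rose and 0 fell at an adjusted p under 0.05 (edgeR quasi-likelihood, 22833 genes tested), where of all genes 18.0% rose and 17.6% fell. All 105 passed the filter on low counts, which their wild type drought level alone could secure. Of the 266 other raised loci, 254 (95.5%) rose in idr1-1 by the same test, so that this share is near that of drought-raised loci in general. The log2 fold change was above 0 for all 105, under DESeq2 0 members fell as well, and 0 had an unadjusted p under 0.05 for a fall. The rule held the idr1-1 drought libraries down and did not use their distance from idr1-1 control. In 103 members every idr1-1 drought library lay above every idr1-1 control library, which held for 18.2% of all genes tested. The median rise over the members was 2.79 (log2) in idr1-1 and 3.32 in wild type, over the 266 other raised loci 2.74 and 2.97, and over all genes tested 0.01 and 0.00.

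Both members that did not pass came from the 10 with the lowest ratio. LOC_Os01g28450 was at 16.4, 8.22 and 11.2 CPM in idr1-1 control and at 5.76, 23.2 and 25.9 CPM in idr1-1 drought, so the groups overlap and drought replicate 1 is the lowest of all 6 (log2 fold change 0.62, SE 0.51, edgeR adjusted p = 0.38). In wild type it went from 10.4, 5.42 and 3.07 to 51.8, 71.4 and 29.9 CPM. LOC_Os01g34560 was just short of the threshold in idr1-1 (log2 fold change 1.36, SE 0.50, edgeR adjusted p = 0.051; 0.58 without drought replicate 3). Among members that did rise, LOC_Os07g02940 had the smallest fold change (0.96, SE 0.19, edgeR adjusted p = 0.0022), against 2.17 (SE 0.19) in wild type from control levels of 5.62 to 5.67 CPM in wild type and 5.18 to 5.65 CPM in idr1-1. The next smallest were LOC_Os01g52740 (1.11, edgeR adjusted p = 0.031), LOC_Os03g08940 (1.22, adjusted p = 0.026) and LOC_Os06g50230 (1.22, adjusted p = 0.022). By mean CPM, 67 members (63.8%) also met the level and 4-fold conditions in idr1-1, and in 28 the idr1-1 rise was under 4 times.

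**Figure D3:**
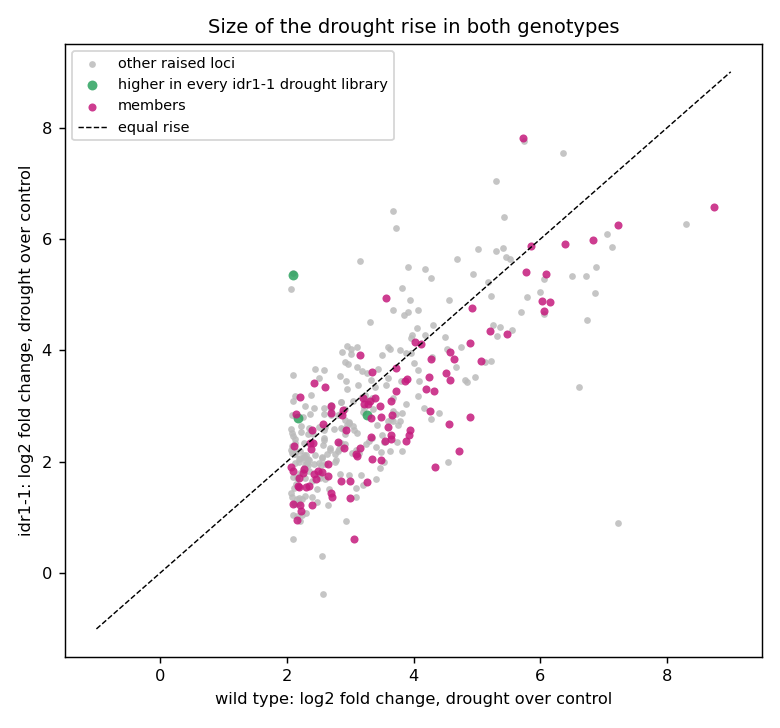
Log2 fold change between drought and control in wild type (x axis) and idr1-1 (y axis) for 374 raised loci; the dashed line marks an equal rise. Members lie mostly below the line, 89 of 105, and 16 lie on or above it.

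In control leaves the members as a group lay near equality between the genotypes. The median log2 fold change of idr1-1 against wild type in control was -0.06 over the members and 0.00 over all genes tested, with 55 members below 0 and 50 above. Every idr1-1 control library lay below every wild type control library for 26 members (24.8%), close to the 25.3% of all genes tested for which this held, and above for 7 (6.67%; 14.1% of all genes). The test called 9 members (8.57%) lower and 2 (1.90%) higher in idr1-1 control, where it called 4.93% and 5.54% of all genes. The rule kept wild type control at or below 1 in 4 of wild type drought and asked for 1 control library over 0.5 CPM. The counts moved with single libraries: the 9 became 1 without wild type control replicate 1 or idr1-1 control replicate 3, 4 without wild type control replicate 3 and 3 without idr1-1 control replicate 1. The 2 became 0 without any 1 of these 4 libraries, 6 without idr1-1 drought replicate 3, and 1 without wild type control replicate 2, any wild type drought library or idr1-1 drought replicate 1.

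Of the 9 that were lower in idr1-1 control, 8 rose at least as much in idr1-1 as in wild type. The rise is counted from the same control libraries, so a low control level in idr1-1 by itself makes the rise larger, and this count is a description only. LOC_Os06g46920 is the clearest, called under all 18 alternative settings. It was at 1.40, 1.26 and 1.30 CPM in wild type control and at 0.284, 0.367 and 0.481 CPM in idr1-1 control (log2 fold change -1.71, SE 0.27, edgeR adjusted p = 0.0089), from 84 and 23 counts in all. It then rose to 15.5, 13.8 and 15.98 CPM in wild type (3.57, SE 0.19) and to 9.68, 13.3 and 10.9 CPM in idr1-1 (4.93, SE 0.23, edgeR adjusted p = 1.7e-07). LOC_Os07g14600 (log2 fold change in control -1.80, SE 0.40, edgeR adjusted p = 0.021), LOC_Os01g11550 (-1.45, SE 0.33, edgeR adjusted p = 0.025) and LOC_Os05g50500 (-1.41, SE 0.36, edgeR adjusted p = 0.033) shared this pattern with SWEET13. For LOC_Os07g14600, idr1-1 control replicate 2 was the highest of its group, at 3.14 CPM against 1.04 and 1.01, and without it the difference was larger, at -2.53. The calls of all 3 loci were lost without wild type control replicate 1 or 3 or idr1-1 control replicate 1 or 3. LOC_Os07g14600, LOC_Os01g11550 and LOC_Os05g50500 were called in 14, 13 and 12 of 18 alternative settings.

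Secondary wall markers were also low in idr1-1 control. CESA4, CESA7 and CESA9, cellulose synthases of thickened walls, summed to 3.66 to 14.7 CPM there, to 26.8 to 41.1 in wild type control, to 27.0 to 44.6 in wild type drought and to 42.0 to 66.8 in idr1-1 drought. All 3 were lower in every idr1-1 control library than in any wild type control library. Their part in the control differences of these members was not tested.

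The 2 members that were higher in idr1-1 control had the opposite arrangement. LOC_Os04g51820 was at 5.25, 3.09 and 3.70 CPM in idr1-1 control and 2.34, 1.69 and 2.34 CPM in wild type control (log2 fold change 1.01, SE 0.21, edgeR adjusted p = 0.019). Under drought it reached 12.6, 11.9 and 12.4 CPM in idr1-1 and 14.1, 19.6 and 15.2 CPM in wild type. The idr1-1 values lie close together by library total, a scale that the TMM factors change. In the fit, which used those factors, the rise was 1.66 (SE 0.19, edgeR adjusted p = 6.3e-05) in idr1-1 against 3.00 (SE 0.21) in wild type. LOC_Os12g02200 (0.88, SE 0.25, edgeR adjusted p = 0.048) was called in 7 of 18 alternative settings, and its counts were not whole in 58.3% of libraries.

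**Figure D4:**
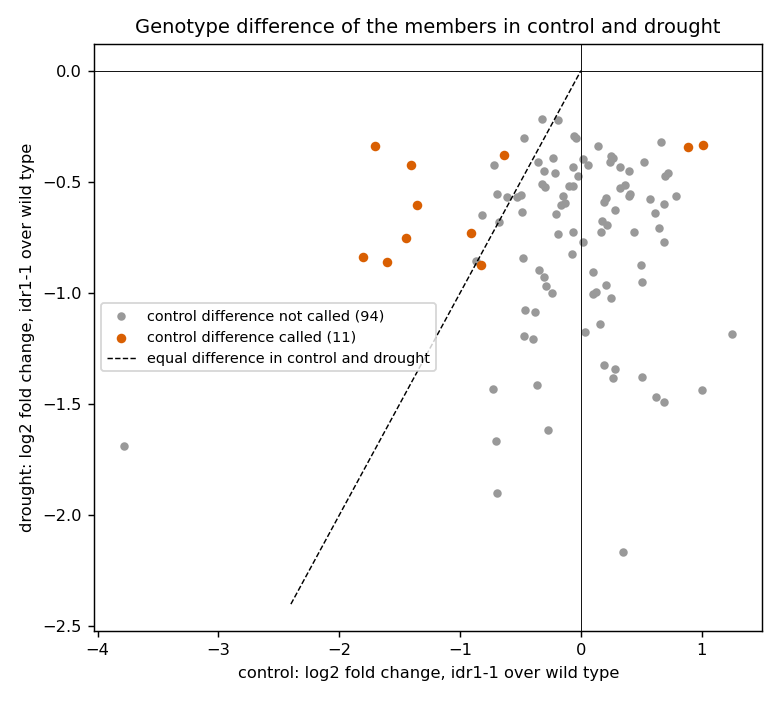
Log2 fold change of idr1-1 against wild type in control (x axis) and in drought (y axis) for the 105 members; orange marks the 11 called in control, and the dashed line marks equal differences in both treatments. The 16 members above or on the line rose at least as much in idr1-1 as in wild type, and the other 89 rose less.

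Member by member, 89 of 105 rose less in idr1-1 than in wild type, an outcome that the rule favours. The rule asked for a large wild type rise and a low idr1-1 drought level. The difference between genotypes under drought is, on the log2 scale, the sum of the difference in control and the difference between the rises. The difference present in control was at least 50% of that under drought in 29 members. The median share over the 105 was 8.9%, with single members from -303% (LOC_Os04g51820) to 502% (LOC_Os06g46920). The median log2 fold change of idr1-1 against wild type in drought was -0.64 over the members, 0.01 over all genes tested and -0.235 over the 266 other raised loci. The median difference between the rises was -0.71, -0.01 and -0.33 in the same order. Over all genes the fit called 0.14% lower and 0.0438% higher in idr1-1 under drought, and 9 members were among the loci called lower. For a smaller rise the share was 0.035% with 0 members, and for a larger one 0.0131% with 0 members. The shares depend on the method. DESeq2 called 555 of all genes between genotypes in drought, where edgeR called 42, and 708 for the difference between the rises, where edgeR called 11. The contrasts between genotypes in drought and between the rises chose the members, and nothing is read from their counts or medians.

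Replicate 3 of idr1-1 drought decided which raised loci became members. Relative to the wild type drought mean, the members were at a median of 46.3%, 63.5% and 68.8% in idr1-1 drought replicates 1, 2 and 3. The 266 other raised loci were at 60.8%, 62.2% and 111%, so that they too were low in replicates 1 and 2 and were not in replicate 3. Applied without that replicate, the same rule finds 280 loci, 74.9% of the raised loci, including all 105. With replicate 3 left out, 10 raised loci lay above every wild type drought library.

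Scaling changed the order of the replicates. TMM factors, which correct library totals for differences in composition, were 0.890, 0.897 and 1.11 in idr1-1 drought replicates 1, 2 and 3 and 0.964 to 1.03 in wild type drought. On the TMM scale the medians of the members were 52.5%, 71.4% and 62.5%, and those of the other raised loci 68.7%, 69.6% and 100%. The rule on that scale finds 107 loci, of which 84 are among the 105. BZIP23 and LOC_Os03g51920 are among the members lost. For both, idr1-1 drought replicate 2 then lies above the lowest wild type drought library. Of the loci described above for a called control difference, LOC_Os06g46920, LOC_Os05g50500, LOC_Os04g51820 and LOC_Os12g02200 are lost as well. Their idr1-1 drought replicate 1 or 2 then lies above the lowest wild type drought library. SWEET13, LOC_Os07g14600 and LOC_Os01g11550 stay members on that scale. Replicates of the members varied by a median coefficient of variation of 23.9% in idr1-1 drought and 12.5% in wild type drought, and those of the other raised loci by 45.3% and 19.7%.

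**Figure D5:**
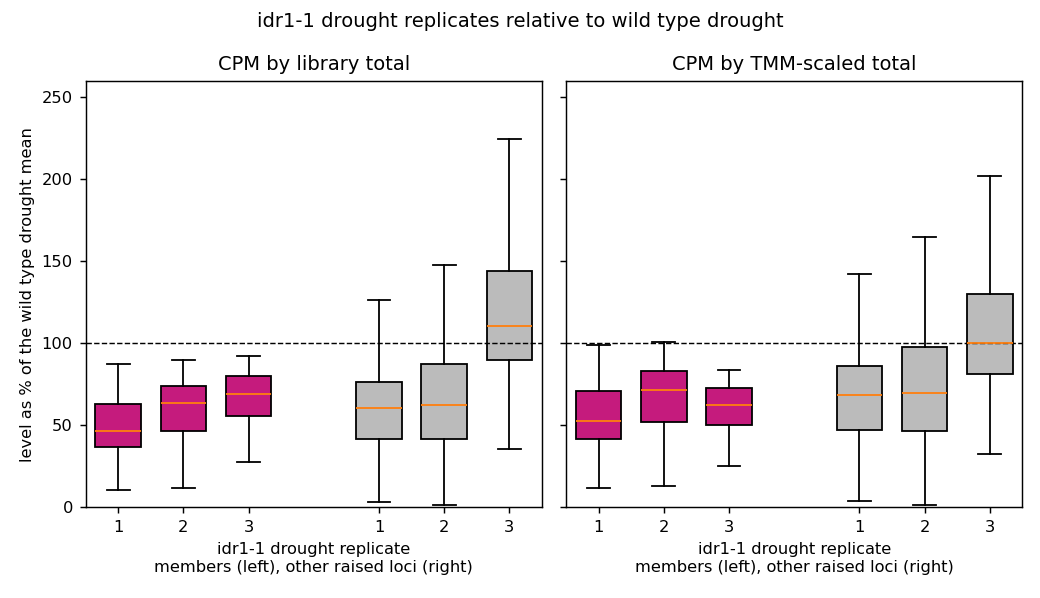
Level in each idr1-1 drought replicate as a percentage of the wild type drought mean, for members (pink) and the 266 other raised loci (grey), by library total (left) and TMM-scaled total (right); boxes span the quartiles, lines are medians and whiskers reach the furthest value within 1.5 box heights, with values beyond them not drawn. Members are below 100% in all replicates at their medians, and the other raised loci have medians of 111% and 100% in replicate 3.

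The exchange of the genotypes, a description added after the values were seen, gave an unequal count. By the same conditions 376 loci were raised at least 4 times in idr1-1, 271 of them raised in both genotypes. Of the 376, 17 had every idr1-1 drought library above every wild type drought library, against the 105 in the other direction. Without idr1-1 drought replicate 3 these numbers were 31 of 272 against 280. Over all genes tested, every idr1-1 drought library lay below every wild type drought library for 8.27% and above for 4.34%.

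Members lay close to the limits that define them. For 41 of 105 the lowest wild type drought library was under 1.1 times the highest idr1-1 drought library, and for 10 it was at least 1.5 times. The nearest inside this limit were LOC_Os08g33710 (132.06 against 132.00 CPM), LOC_Os02g43540 (141.5 against 141.4) and LOC_Os01g58194 (75.5 against 75.3). The nearest outside were HSP101, LOC_Os01g34590 (6.69 against 6.71) and P5CS1. On the wild type rise, LOC_Os09g38320, LOC_Os12g02320 and LOC_Os03g12820 lay just inside at 4.03, 4.10 and 4.10 times, and LOC_Os11g04150, LOC_Os06g23684 and LOC_Os03g10080 just outside at 3.93, 3.91 and 3.90 times.

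By the chromosome number in their identifiers the members were spread over 11 of the 12 chromosomes. Chromosome 2 held 16 members among 32 raised loci and chromosome 1 held 22 among 67, while chromosome 11 held 0 among 12 once LOC_Os11g26760, which met the rule and lies there, had been left out. Of the members, 6 (5.7%) lay within 5 identifiers of another member, as the pairs LOC_Os02g43770 and LOC_Os02g43820, LOC_Os03g60560 and ADF3, and LOC_Os05g20450 and LOC_Os05g20470. Over all 374 raised loci, 78 (20.9%) lay that close to another raised locus, in a larger set where neighbours are more likely. LOC_Os02g43820 rose by 2.63 (log2, SE 0.40, edgeR adjusted p = 0.00037) in idr1-1 and 3.59 in wild type, and LOC_Os02g43770 by 2.84 (SE 0.19, edgeR adjusted p = 1.1e-06) and 2.87. LOC_Os05g20470 rose by 2.24 (SE 0.28, edgeR adjusted p = 9.8e-05) in idr1-1 and 2.91 in wild type, and LOC_Os05g20450 by 2.57 (SE 0.23, edgeR adjusted p = 9.6e-06) and 2.40.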

How the data were processed

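Messenger RNA of 12 leaf libraries (3 per group) was analysed. The deposited values are estimated counts per locus, made with HISAT2 2.1.0 and featureCounts 1.6.3 per the submitters' processing notes; the sources used here give no genome build, annotation, strandedness or counting options. Between 13.3% and 14.8% of nonzero values were not whole, so near-identical and overlapping loci are uncertain. A floor of 3 counts is 0.119 to 0.157 CPM.

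The rule was applied to the deposited values. For tests, counts were rounded to whole numbers (R 4.3.3, edgeR 4.0.16): filterByExpr kept 22833 genes, TMM factors were computed, and the quasi-likelihood test was fitted to the 4 groups of 12 libraries together (residual df 8). Adjusted p-values are Benjamini-Hochberg over all genes tested, threshold 0.05. Fold changes are log2, with SE from the F statistic. DESeq2 1.42.0 was an alternative. The steps were tested on simulated data.

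Members and lists were chosen with earlier results of these data known. Named were the 10 most abundant members, the 10 with the lowest ratio of idr1-1 to wild type drought, the 5 largest and 5 smallest rises in idr1-1, up to 5 called in control in each direction, those at thresholds, neighbours, and those with an assigned name; where many met a rule, a summary is given. None of 55801 LOC_Os identifiers (0) was in the gene table (assembly ASM3414082v1). Names are published locus assignments recalled for 102 loci in 11 lists, 82 of which the table places on the same chromosome. This would not detect a name given to a nearby locus: the identifier is what was measured. No sequence is shown because no table paired identifiers with sequences.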

Additional observations from a re-analysis of the deposited data

How the results depend on the processing

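The count of members that rose in idr1-1 under drought (103) was 99 to 103 when each library was left out in turn and 101 to 104 under the other alternatives, and 0 fell throughout. The count lower in idr1-1 control (9) was 1 to 13 with a library left out, 14 with DESeq2 and 7 to 11 otherwise. The count higher in idr1-1 control (2) was 0 to 6 with a library left out, 4 with the 2 groups alone, 6 with DESeq2 and 1 in the replicate block fit. The median control difference over the members (-0.06) was -0.141 to 0.062 with a library left out, turning to 0.062 without wild type control replicate 2 and 0.028 without idr1-1 control replicate 2. The other medians kept their sign. With a library left out, the median rise was 2.62 to 2.89 in idr1-1 and 3.22 to 3.37 in wild type. The median difference between genotypes in drought was -0.745 to -0.572, and that between the rises -0.831 to -0.609. The number of members was 103 to 280 with a library left out, 236 with a rise of at least 2 times and 63 with at least 8 times. It was 86 to 132 with the other limits and scales.

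Of 45 named members, 5 lost the call for their rise in idr1-1 under at least 1 alternative and 1 gained it (LOC_Os01g34560). Of 8 named control differences, 7 lost their call under at least 1. Leaving out idr1-1 drought replicate 3 took the rise of LOC_Os01g54030 from 2.20 to 1.37 (adjusted p = 0.09) and that of LOC_Os03g06360 from 3.53 to 2.85, and leaving out idr1-1 control replicate 2 took that of LOC_Os07g14600 from 3.17 to 3.90. Same-numbered libraries of different groups did not deviate together (r of their deviations -0.316 to 0.221), so numbers do not pair the libraries, and the replicate block changed the count of 2 above and no other count by over 1.5 times. With 2 libraries left in a group, the spread is taken from all groups. Depth limits members with few control counts, such as SWEET15.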
